A study of Mus musculus with 2 samples.

Results

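Basophils are rare granulocytes of the blood and marrow, and the barcodes described here are those of mouse bone marrow that carried their granule protease transcripts. They were the barcodes of the marrow library with under 10% mitochondrial unique molecular identifiers (UMIs, 1 per captured transcript) and with at least 10 UMIs of Mcpt8 and Prss34 together. The rule found 97 basophil barcodes among 6439 kept marrow barcodes, a share of 1.51% (1.22 to 1.83), out of 8980 barcodes in the series. The marrow library, which the submitters titled as progenitor cells, was made from CD45+ CD3- Ly6G- cells sorted from the bone marrow of 3 naive C57BL/6 mice, whose cells were pooled. A second library was made from CD45+ Car1-GFP-expressing marrow cells of 3 naive Car1-GFP reporter mice on a C57BL/6 background, also pooled, and held 0 barcodes that met the rule. Each library was a single droplet run of 10000 sorted cells with 3' tag chemistry, neither the ages nor the sexes of the mice are given, and cells of single mice cannot be told apart.

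Basophils arise in the marrow from granulocyte progenitors that share a route with mast cells, and they leave it as mature cells. They arm themselves with IgE through a surface receptor of an alpha chain that binds the antibody, a beta chain that amplifies the signal and a gamma chain shared with other receptors. Crosslinking of that receptor releases histamine, proteases and lipid mediators from the cell and induces cytokines such as interleukin 4. Mcpt8, a granule serine protease, and Prss34, a tryptase-like protease, mark basophils in the mouse, whereas tissue mast cells are marked by Kit and by chymases and tryptases that basophils carry little of.

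The basophil barcodes held 122770 UMIs, 1.42% of those in kept marrow barcodes, and the other 6342 marrow barcodes held 8523516. Depth per barcode was similar, with 607 to 3535 UMIs and a median of 1098 in the basophil barcodes, and 593 to 12247 with a median of 1050 in the others. A median of 619 genes was detected in a basophil barcode and 547 in another marrow barcode, and mitochondrial transcripts made up 2.48% and 2.18% of all their UMIs. The mitochondrial limit removed 19 marrow barcodes (0.294%), of which 0 met the rule. The libraries shared 14 barcode sequences, and 0 of these were basophil barcodes. Counts were summed over barcodes and scaled to counts per 1000000 UMIs (CPM), so that 1 UMI is 8.15 CPM in the basophil sum. Both sides came from a single library, so no test was made, and the 95% intervals given here (exact Poisson for a level, exact binomial for a share or a ratio) cover counting error only.

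The count of Mcpt8 plus Prss34 ran on across the limit, with few barcodes near it. Of the kept marrow barcodes 5638 had 0 such UMIs, 632 had 1, 59 had 2 and 13 had 3 to 9, while 10 had 10 to 19, 33 had 20 to 49, 37 had 50 to 99 and 17 had 100 to 173. The barcodes nearest the limit held 10, 10, 11, 11, 12 and 14 UMIs inside it, and 8, 6, 6, 5, 5 and 5 UMIs outside it. Of the 6 just inside, 6 had a UMI of at least 1 of Cpa3, Ms4a2, Fcer1a and Cd200r3, and of the 6 just outside 5 had one. The basophil barcodes together held 87.9% of all Mcpt8 and Prss34 UMIs, 5863 of 6672, and most of the remainder stood as single UMIs. These values chose the barcodes and are given as a description.

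Mcpt8 ranged over 6 to 122 UMIs per basophil barcode with a median of 33, which was 0.188% to 10.1% of a barcode's UMIs. Prss34 ranged over 0 to 61 UMIs with a median of 19, or up to 6.57% of the UMIs. Together they made up 4.78% of the UMIs of the basophil barcodes, against 0.00949% of those of the other marrow barcodes, and reached 16.1% in a single barcode. Mcpt8 outnumbered Prss34 in 85 of the 97 barcodes, and Prss34 outnumbered Mcpt8 in the other 12. The proteases varied together, with a Pearson correlation of 0.73 over the 97 barcodes on a log scale, while Mcpt8 and Cpa3 gave 0.28; the values of a barcode share its depth.

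**Figure D1:**
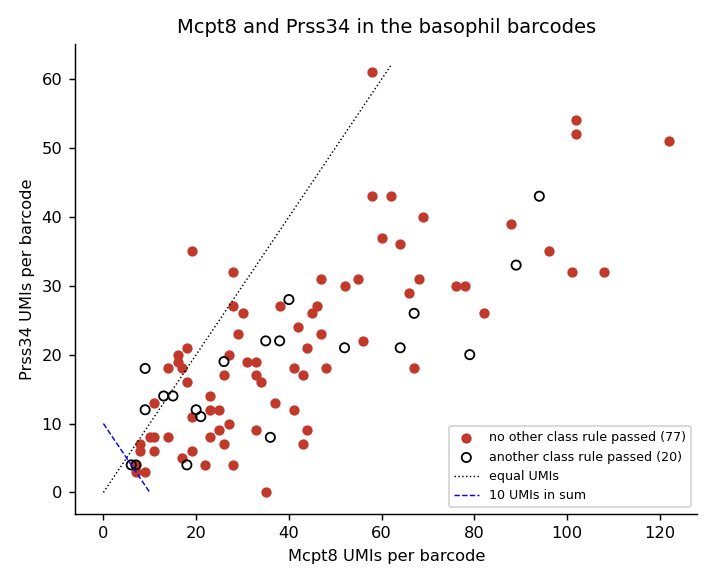
Mcpt8 UMIs (x axis) against Prss34 UMIs (y axis) in each of the 97 basophil barcodes. Open circles are the 20 barcodes that also passed the rule of another cell class, the dotted line marks equal counts and the dashed line the limit of 10 UMIs in sum; most points lie under the dotted line.

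The cell type label was checked on the 4 markers that the rule did not use, and all 4 stood far higher in the basophil barcodes. Because the barcodes were chosen on transcripts of the same cells, these levels describe them and are no test. Fcer1a, the IgE-binding alpha chain, was at 513 CPM in the basophil barcodes and 1.64 CPM in the other marrow barcodes, a log2 ratio of 8.29 (7.44 to 9.24). Cd200r3, an activating receptor of basophils and mast cells, was at 375 and 1.88 CPM (7.64). Cpa3, a carboxypeptidase stored in granules, was at 1914 and 12.8 CPM (7.23, 6.89 to 7.57), and Ms4a2, the beta chain of the IgE receptor, at 872 and 7.16 CPM (6.93). Their UMIs lay mostly in the basophil barcodes, which held 81.8% of all marrow UMIs of Fcer1a, 74.2% of Cd200r3, 68.3% of Cpa3 and 63.7% of Ms4a2.

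Single barcodes were sparse, and most showed only some of these markers. Cpa3 had a UMI in 83 of 97 basophil barcodes (85.6%, 77.0 to 91.9) and in 1.34% of the others, Ms4a2 in 58 and in 0.773%, Fcer1a in 40 and in 0.221%, and Cd200r3 in 31 and in 0.237%. With every barcode thinned to 500 UMIs these shares were 62.9% against 0.662% for Cpa3, 34.0% against 0.315% for Ms4a2, 28.9% against 0.0631% for Fcer1a and 16.5% against 0.0788% for Cd200r3. At least 1 of the 4 was seen in 94 basophil barcodes and at least 2 in 74, against 16 of the 6342 other barcodes with at least 2. All 6 markers were seen together in 8. A marker with no UMI in a barcode is therefore not shown to be absent from that cell.

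Of the 4 markers outside the rule, 3 were in the order of the protease count. The 10 barcodes with 10 to 19 UMIs of Mcpt8 plus Prss34 had 815 CPM of Cpa3, 407 of Ms4a2 and 67.9 of Fcer1a. The 33 barcodes with 20 to 47 UMIs had 1692 CPM of Cpa3, 774 of Ms4a2 and 387 of Fcer1a, and the 54 with 50 to 173 UMIs had 2295 CPM of Cpa3, 1035 of Ms4a2 and 690 of Fcer1a. The lowest range rested on 12 UMIs of Cpa3, 6 of Ms4a2 and 1 of Fcer1a. Counting intervals of neighbouring ranges overlapped for each of these 3 genes. For Ms4a2 they were 149 to 887, 529 to 1092 and 805 to 1310 CPM. Cd200r3 was not in that order, with 339 CPM in the lowest range, 242 in the middle and 465 in the highest. These 4 genes had no part in setting the ranges, and their order is a description.

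The marker genes lie on 6 chromosomes of mm10 (positions from GENCODE M21, 1-based). Mcpt8 (ENSMUSG00000022157) spans 56082166 to 56085273 of chromosome 14 on the minus strand, and Prss34 (ENSMUSG00000056399) spans 25298394 to 25300165 of chromosome 17 on the plus strand. Cpa3 lies at 20215620 to 20242181 of chromosome 3, Ms4a2 at 11615523 to 11623719 of chromosome 19, and Fcer1a at 173221284 to 173227214 of chromosome 1, all on the minus strand. Cd200r3 lies at 44943678 to 44981380 of chromosome 16 on the plus strand. The bases in front of their start sites are shown because the markers stood high together with Gata2, a zinc finger factor that binds GATA sequences and is needed for basophil and mast cell development. In the lines that follow, the 250 bases before the RefSeq start (GRCm38.p6) are given 5′ to 3′ on the gene's strand, with matches on either strand to the motif AGATAA, to the motif AGATAG, to the motif TGATAA and to the motif TGATAG in capitals. The RefSeq starts of Mcpt8 and Fcer1a differ from the GENCODE ends given above, so that the Mcpt8 window reaches into the GENCODE gene and the Fcer1a window stands off from it.
Cpa3 (chr3:20242182-20242431, minus strand): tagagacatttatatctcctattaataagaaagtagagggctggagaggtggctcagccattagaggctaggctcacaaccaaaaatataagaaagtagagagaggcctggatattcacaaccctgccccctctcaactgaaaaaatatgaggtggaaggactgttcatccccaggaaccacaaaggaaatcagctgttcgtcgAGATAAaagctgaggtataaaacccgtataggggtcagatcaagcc
Ms4a2 (chr19:11623720-11623969, minus strand): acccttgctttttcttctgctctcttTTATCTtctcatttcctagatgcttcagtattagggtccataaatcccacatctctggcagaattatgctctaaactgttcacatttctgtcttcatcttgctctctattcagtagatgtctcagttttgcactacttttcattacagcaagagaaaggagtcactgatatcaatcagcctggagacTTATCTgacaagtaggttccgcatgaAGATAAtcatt
Fcer1a (chr1:173227230-173227479, minus strand): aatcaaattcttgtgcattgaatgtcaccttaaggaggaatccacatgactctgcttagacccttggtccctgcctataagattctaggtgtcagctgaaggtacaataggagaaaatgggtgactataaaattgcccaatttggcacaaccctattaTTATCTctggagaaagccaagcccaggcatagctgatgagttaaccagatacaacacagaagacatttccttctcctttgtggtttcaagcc
Cd200r3 (chr16:44943428-44943677, plus strand): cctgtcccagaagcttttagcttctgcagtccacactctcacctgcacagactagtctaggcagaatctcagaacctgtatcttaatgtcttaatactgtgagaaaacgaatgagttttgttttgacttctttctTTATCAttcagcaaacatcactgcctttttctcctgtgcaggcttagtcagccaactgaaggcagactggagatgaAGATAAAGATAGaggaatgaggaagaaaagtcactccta
Prss34 (chr17:25298144-25298393, plus strand): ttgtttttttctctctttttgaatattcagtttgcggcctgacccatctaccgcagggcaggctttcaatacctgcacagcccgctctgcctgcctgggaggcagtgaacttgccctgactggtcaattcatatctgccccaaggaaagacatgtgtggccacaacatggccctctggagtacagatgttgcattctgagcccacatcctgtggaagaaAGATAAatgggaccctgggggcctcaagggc
Mcpt8 (chr14:56085198-56085447, minus strand): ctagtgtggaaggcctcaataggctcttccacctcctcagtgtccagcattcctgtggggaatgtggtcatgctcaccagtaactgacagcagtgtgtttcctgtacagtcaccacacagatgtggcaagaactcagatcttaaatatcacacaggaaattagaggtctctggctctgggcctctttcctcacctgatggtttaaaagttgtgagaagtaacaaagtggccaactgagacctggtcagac

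A match to 1 of these 4 motifs stood in the window of 5 of the 6 markers, with 3 matches in Ms4a2 and in Cd200r3, 1 in Cpa3, Prss34 and Fcer1a, and 0 in Mcpt8. Among all 32851 windows of that length 26.5% held at least 1 match. Among the 25 genes with the highest ratios described later, 4 of the markers included, 20 genes had 25 windows and 9 windows held a match. Those 9 include the windows of the 4 markers. The motif TGTGGT on either strand, which RUNX factors bind, stood in the windows of Mcpt8, Cpa3 and Fcer1a, 3 of 6 markers. It stood in 2 of the 20 genes with the highest ratios, which were the markers Cpa3 and Fcer1a again. Among all 32851 windows 4614 held it. A match is a description of the letters and does not show binding, and no match says only that these letters are not in this window.

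Over all genes the basophil barcodes differed from the other marrow barcodes in both directions. A gene was counted as measured where the mean of its 2 levels reached 100 CPM, which held for 1300 genes besides Mcpt8 and Prss34. In the basophil barcodes 97 of these genes (7.46%) exceeded the others by 2-fold or more, and 74 (5.69%) stood lower by 2-fold or more. The median log2 ratio was 0.09, and the difference reached 16-fold for 11 of the higher genes and for 1 of the lower. Other scalings lowered every log2 ratio, TMM by 0.22 and DESeq2 size factors by 0.19, and the split was then 66 higher and 100 lower with TMM and 69 and 97 with DESeq2. A gene near 0 outside the basophil barcodes passed the 100 CPM mean only where it was high in them, so high ratios are partly a property of that limit. The counts of list genes given later are to be set beside the shares over all measured genes, 7.46% higher and 5.69% lower.

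Among measured genes other than the markers, the highest ratio belonged to Rnase12, a member of the ribonuclease A family. It was at 261 CPM in the basophil barcodes and 1.53 CPM in the other marrow barcodes (log2 7.42, 6.45 to 8.47), above Cpa3 and Ms4a2. Csrp3, known as a LIM protein of striated muscle, was at 481 and 7.74 CPM (5.96). Itga2b, the integrin chain CD41 that is best known from platelets, was at 212 and 8.21 CPM (4.69), and Ifitm1, an interferon-inducible membrane protein, at 1075 and 47.0 CPM (4.51). The ER mannosidase-like gene Edem3 was at 334 and 14.5 CPM (4.52), the arginine deiminase Padi2 at 212 and 16.7 CPM (3.67), and the signalling inhibitor Spry2 at 489 and 43.2 CPM (3.50). Ptprs, a receptor phosphatase, gave 3.47, and the transcripts 4930519L02Rik and Gm15856 gave 4.95 and 3.54. Nucb1 (2.51), Fam129a (2.47), the ubiquitin ligase Nedd4 (2.45), Fam46a (2.31) and Mns1 (2.24) ended the 25 highest together with the genes given by function in the paragraphs on factors and mediators.

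At the other end S100a4, a calcium-binding protein of motile myeloid and lymphoid cells, had 2 UMIs in the basophil barcodes, 16.3 CPM, against 269 CPM in the other marrow barcodes (log2 -4.04, -7.09 to -2.19). Cd44, the hyaluronan receptor, was at 48.9 and 271 CPM (-2.47), and the macrophage pore-forming gene Mpeg1 at 32.6 and 191 CPM (-2.55). Slfn2 (-2.47), Ahnak (-1.92), the guanine deaminase Gda (-2.01) and the lysosomal protease Ctsb (-2.03) rested on 5 to 7 UMIs in the basophil barcodes. Ly6d (-2.31), Ly6c2 (-2.28), Chil3 (-2.22), Lcn2 (-1.80) and Ltf (-1.78), genes of other marrow cells, completed the 15 lowest with Irf8, Elane and Prtn3.

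**Figure D2:**
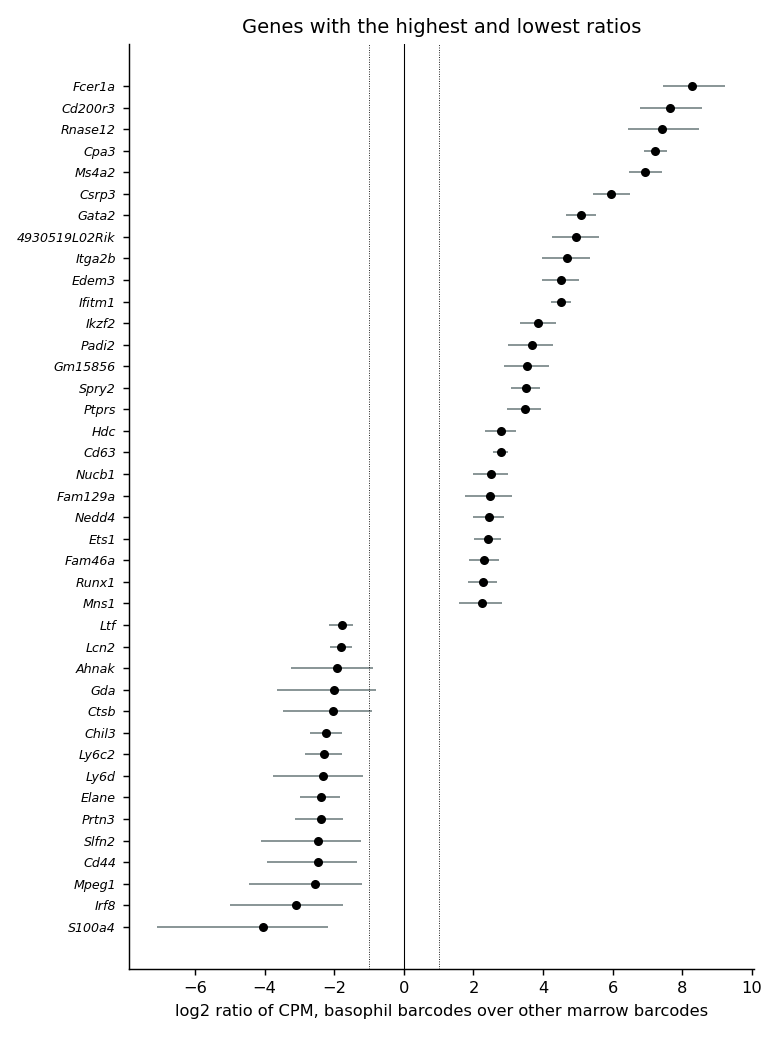
Log2 ratio of CPM, basophil barcodes over other marrow barcodes (x axis), for the 25 highest and 15 lowest genes (y axis); bars are 95% exact binomial counting intervals, and dotted lines mark 2-fold. All 40 intervals lie on one side of 0, from Fcer1a at 8.29 to S100a4 at -4.04.

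Of 9 measured genes on the list of granule proteases and serglycin, 4 were at least 2-fold higher and 2 lower, with a median of 0.66 beside 0.09 over all measured genes. That gap was lost with a limit of 50 CPM (0.09 beside 0.10) and in barcodes of at least 1000 UMIs (0.055 beside 0.057). With no limit the list median was -0.49 beside -0.81. Srgn, the proteoglycan core that packs granule proteases, was at 798 CPM in the basophil barcodes and 250 CPM in the other marrow barcodes (log2 1.68), and Cst7, an inhibitor of lysosomal proteases, at 187 and 42.0 CPM (2.16). Cathepsin G (Ctsg) was at 1181 and 267 CPM (2.14, 1.89 to 2.39), and Mpo, the myeloperoxidase of neutrophil primary granules, at 1409 and 890 CPM (0.66, 0.44 to 0.88). The elastase gene Elane and the proteinase 3 gene Prtn3, which neutrophil precursors make together with those, were at 220 and 1144 CPM (-2.38) and at 155 and 809 CPM (-2.39).

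The primary granule genes thus stood in another proportion in basophil barcodes than in the progenitors that carry the most of them. The ratio of Mpo to Elane UMIs was 6.41 in basophil barcodes, 0.735 in the 332 barcodes with at least 10 UMIs of Mpo, Elane and Prtn3 that passed no other rule (the granulocyte-monocyte progenitor rule), and 0.778 in all other marrow barcodes. That of Ctsg to Elane was 5.37 in basophil barcodes, 0.215 in the progenitor-rule barcodes and 0.234 in the other marrow barcodes. Ctsg itself was nearly as high in basophil barcodes as in the progenitor-rule barcodes, 1181 against 1451 CPM, whereas Mpo was at 1409 against 4955 CPM and Elane at 220 against 6744 CPM. Of the 27 Elane UMIs in basophil barcodes 23 lay in 20 barcodes that also passed another rule, which the rule on Mpo, Elane and Prtn3 partly fixes, and in the remaining 77 barcodes Mpo was at 1341 CPM, Ctsg at 1291 CPM and Elane at 49.7 CPM. There Mpo had a UMI in 53 of 77 barcodes, Ctsg in 54 and Elane in 4.

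The chymases and tryptases that mark tissue mast cells were at 0. The basophil barcodes held 0 UMIs of the chymases Cma1 and Mcpt4 and of the tryptase gene Tpsb2, which allows up to 24.4 CPM, and 1 UMI of Gzmb (8.15 CPM, against 1.53 CPM in the other marrow barcodes). Kit, the stem cell factor receptor, had 8 UMIs or 65.2 CPM, against 48.9 CPM. The other marrow barcodes also held 0 UMIs of Mcpt4 and Tpsb2, and 5 UMIs of Cma1 (0.587 CPM). Cma1, Mcpt4 and Tpsb2 therefore do not set the basophil barcodes apart from them. On the mast cell list 0 of 18 genes reached 100 CPM in the mean. Of its other members, Il1rl1, the interleukin 33 receptor, stood higher, with 15 UMIs (122 against 12.1 CPM, log2 3.34, 2.45 to 4.13), as did Slc45a3, with 3 UMIs (24.4 against 2.23 CPM, log2 3.45, 1.05 to 5.22); both are named here after their values were seen. Of the 12 eosinophil genes none reached 100 CPM in the mean. Prg2, an eosinophil granule protein, had 7 UMIs in 2 basophil barcodes (57.0 against 32.1 CPM). Alox15 (chosen after its values were seen) had 6 UMIs in 6 basophil barcodes and 1 UMI in all other marrow barcodes.

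The IgE receptor chains differed in how far they were restricted to basophils. Fcer1g, the gamma chain that other Fc receptors also use, was at 1711 CPM in the basophil barcodes and 1230 CPM in the other marrow barcodes, a log2 ratio of only 0.48 (0.27 to 0.67), beside 8.29 for the alpha chain and 6.93 for the beta chain. Of the 32 genes of the receptor and its signalling 5 were measured, 2 higher and 1 lower with a median of 0.48, and the lower one was Ptpn6, a phosphatase that restrains such receptors, at 89.6 and 203 CPM (-1.18). Prkcd, a protein kinase C, was at 138 and 140 CPM. Among genes under the 100 CPM limit, Lat, the adaptor that links the receptor to calcium release, had 10 UMIs (81.5 against 5.75 CPM; chosen after its values were seen). With no limit on the mean, the median of this list was -0.28, beside -0.81 over all genes with a UMI. Fcgr3, a low-affinity IgG receptor, was at 244 and 84.1 CPM (1.54), and the inhibitory Clec12a at 497 and 359 CPM (0.47); of the 3 measured inhibitory and Fc gamma receptors 1 was higher and 1 lower, with a median of 0.47.

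Of 10 measured basophil surface genes 6 were at least 2-fold higher and 2 lower, with a median of 1.63 beside 0.09 over all measured genes. The list median moved with the limit on the mean, to 2.15 at 50 CPM, 1.11 at 200 CPM and 0.74 with no limit. Over all genes these limits gave 0.10, 0.06 and -0.81. Cd63, a tetraspanin that reaches the surface when granules fuse with the membrane, was at 1613 CPM in the basophil barcodes and 235 CPM in the other marrow barcodes (log2 2.78, 2.56 to 2.99), with a UMI in 73 of 97 and in 21.6%. Emilin2 (2.15) and the tetraspanin Cd9 (1.11) were also higher, Cd9 within 2-fold under TMM at 0.89. Itga2, the chain of the CD49b epitope by which basophils are often sorted, had 0 UMIs in the basophil barcodes and 3 in the others, and so cannot be judged at this depth. Ptprc, which encodes the CD45 used in the sort, had 25 UMIs in 18 basophil barcodes, 204 CPM, against 306 CPM in the others, and Cd3e, which the sort excluded, had 0. Ly6g, also excluded, had 2 UMIs, 16.3 CPM, against 89.0 CPM.

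Receptors for cytokines and attractants were sparse. Csf2rb, the shared beta chain of the receptors for interleukin 3, interleukin 5 and GM-CSF, was the single measured gene of 31 cytokine receptors, with 179 CPM in the basophil barcodes and 48.1 CPM in the other marrow barcodes (log2 1.90); its close relative Csf2rb2 had 10 UMIs, and reads of the 2 genes may be hard to assign. Below the limit, and chosen after their values were seen, the interleukin 33 receptor Il1rl1 had 15 UMIs in 14 basophil barcodes (122 against 12.1 CPM) and the interleukin 18 receptor chain Il18rap 17 UMIs (138 against 25.9 CPM). Of 24 attractant and lipid receptors 2 were measured. Cxcr4, which retains cells in the marrow, was at 554 and 210 CPM (1.40), and the monocyte receptor Ccr2 at 147 and 333 CPM (-1.18), while Ccr1, below the limit, had 20 UMIs (163 against 13.8 CPM; chosen after its values were seen).

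Few mediator genes were measured. Hdc, the enzyme that makes histamine, was at 399 CPM in the basophil barcodes and 58.0 CPM in the other marrow barcodes (log2 2.78, 2.33 to 3.21). It was the only 1 of 4 measured genes of histamine and eicosanoid synthesis past 2-fold; Alox5ap, which presents arachidonic acid to 5-lipoxygenase, was at 847 and 492 CPM (0.79), Lta4h at 73.3 and 136 CPM (-0.89), and the list median was 0.20. The monoamine transporter Slc18a2, which loads histamine into granules, had 14 UMIs (114 against 4.81 CPM; chosen after its values were seen). Other genes of this list under the limit went both ways. Alox5 was at 147 and 26.0 CPM, and Mgst3 at 8.15 CPM (1 UMI) and 36.8 CPM. Of 29 cytokines and chemokines 3 were measured: Ccl9 was at 244 and 111 CPM (1.14, and 0.92 with TMM), Tgfb1 at 155 and 106 CPM (0.54) and Ccl6 at 204 and 202 CPM (0.01). Il4, the signature cytokine of basophils, had 9 UMIs in 9 of 97 basophil barcodes, 73.3 CPM, against 1 UMI in all 6342 others (chosen after its values were seen). Il6 had 7 UMIs in 7 basophil barcodes and 7 UMIs in the others, and the growth factor gene Hgf 15 UMIs against 54 UMIs, 122 against 6.34 CPM (both chosen after their values were seen). Cyp11a1, the enzyme that opens steroid synthesis, had 15 UMIs in 13 basophil barcodes, 122 CPM, against 1.17 CPM in the others (chosen after its values were seen).

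Among transcription factors the highest ratio was that of Gata2, with 562 CPM in the basophil barcodes and 16.4 CPM in the other marrow barcodes (log2 5.10, 4.66 to 5.52). It had a UMI in 46 of 97 basophil barcodes and in 1.91% of the others, and 33.0% of its marrow UMIs lay in basophil barcodes. Ikzf2 (Helios) was at 318 and 21.8 CPM (3.86), Runx1, a factor of blood stem cells and myeloid lineages, at 448 and 93.0 CPM (2.27), and the LIM-only cofactor Lmo4 at 896 and 245 CPM (1.87). Ets1, outside that list, was at 497 and 93.4 CPM (2.41). Irf8, which drives monocytes and dendritic cells, had 4 UMIs, 32.6 CPM, against 281 CPM (-3.11, -4.98 to -1.75), and Cebpe, a factor of neutrophil granules, was at 106 and 196 CPM (-0.89). Of the 13 Cebpe UMIs, 3 were left without the 20 barcodes that also passed another class rule, a log2 ratio of -2.40 (-4.67 to -0.85). Of 15 measured factors 4 were higher and 1 lower, with a median of 0.21.

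The next 7 genes, of protein folding and export in the secretory pathway, were picked because they were high, so their number and direction show nothing about that pathway as a whole. The chaperone Calr was at 1051 CPM in the basophil barcodes and 302 CPM in the other marrow barcodes (log2 1.80), Hspa5 (BiP) at 660 and 200 CPM (1.72), Hsp90b1 at 1075 and 386 CPM (1.48), Hyou1 at 456 and 105 CPM (2.12), Pdia4 at 375 and 91.7 CPM (2.03), Manf at 415 and 136 CPM (1.61) and Ssr4 at 603 and 204 CPM (1.56). The progenitor-rule barcodes, which also make granules, had 952 CPM of Calr, 434 of Hspa5, 427 of Hyou1 and 255 of Pdia4, which gave log2 ratios of the basophil barcodes over them of 0.14 (-0.14 to 0.42) for Calr, 0.61 (0.23 to 0.97) for Hspa5, 0.10 (-0.35 to 0.52) for Hyou1 and 0.56 (0.05 to 1.04) for Pdia4. For Calr and Hyou1 the difference was within counting error. Rab44, a large Rab protein of granule-bearing cells, was at 204 and 43.6 CPM (2.22) and Vamp8, a granule fusion protein, at 440 and 356 CPM (0.30), the 2 measured genes of 24 on the exocytosis list.

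Genes of general metabolism differed little. Of 9 measured glycolysis genes 0 were higher and 1 lower, with a median of -0.07; the lower one was the enolase Eno1, at 81.5 CPM in the basophil barcodes and 174 CPM in the other marrow barcodes (log2 -1.10, -2.16 to -0.21), and the hexokinase Hk2 was at 187 and 94.7 CPM (0.98). Of 9 antioxidant enzymes 0 were past 2-fold, with a median of -0.21, and of 2 tricarboxylic acid cycle genes 0 were. Mdh2, 1 of these 2 genes, had 11 UMIs in the basophil barcodes and gave -2.54 when thinned to 500 UMIs. Prdx5, a peroxiredoxin, was at 603 and 1043 CPM (-0.79), but past 2-fold at -1.22 without barcodes of a second class, at -1.01 with TMM and at -1.52 when thinned to 500 UMIs, where Prdx1 also was, at -1.39. Car2, a carbonic anhydrase of red cells, had 8 UMIs in 2 basophil barcodes, 65.2 CPM, against 189 CPM in the others (-1.53), and Car1, the gene of the reporter in the second library, 3 UMIs against 103 CPM. Without the barcodes that passed another rule, described further on, Car2 had 1 UMI. Of 3 measured survival genes 1 was past 2-fold: the kinase Pim1 was at 277 and 132 CPM (1.06, and 0.85 with TMM). Of 10 adhesion genes 2 were higher and 1 lower, with Cd47, a signal against uptake, at 929 and 527 CPM (0.82), and of the 15 stress genes that dissociation can induce none reached 100 CPM in the mean.

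**Figure D3:**
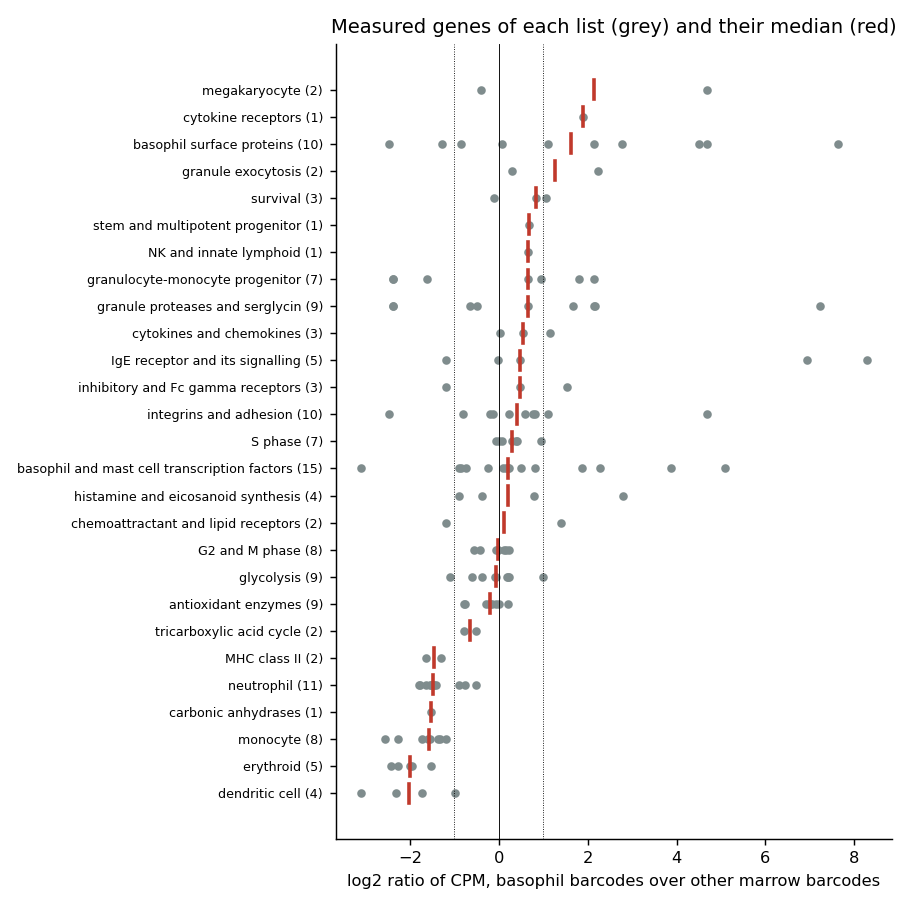
Log2 ratio of CPM, basophil barcodes over other marrow barcodes (x axis), for each measured gene (grey) of each list (y axis, number measured in parentheses), with the list's median in red and dotted lines at 2-fold. The basophil surface list has a median of 1.63, and the neutrophil, monocyte, erythroid and dendritic cell lists lie at the low end.

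Markers of other marrow cells were lower in most lists, but not in all. All 8 measured monocyte genes were at least 2-fold lower with a median of -1.58, as were 5 of 5 erythroid genes (-1.998), 2 of 2 MHC class II genes (-1.47) and 3 of 4 dendritic cell genes (-2.02). Lyz2, a lysozyme of monocytes and neutrophils, was at 2191 CPM in the basophil barcodes and 6435 CPM in the other marrow barcodes (log2 -1.55), and Cd74, the MHC class II invariant chain, at 171 and 535 CPM (-1.65). In barcodes of at least 1000 UMIs, however, Cd74 gave -0.07 and H2-Aa 0.20, so that neither MHC class II gene was lower by 2-fold there, while Cd74 gave -2.84 without barcodes of a second class. Medians were above 0 for the progenitor list (0.66, with Ctsg and Calr higher and Elane, Prtn3 and Fcnb lower of 7), for the single measured NK gene Nkg7 (0.67) and stem cell gene Cdk6 (0.68), and for 2 megakaryocyte genes (2.15), of which Itga2b was higher and Rap1b gave -0.39. Of 11 neutrophil genes 8 were lower and 0 higher, with a median of -1.47. The calprotectin subunit S100a8 was at 24754 and 68459 CPM, and the cathelicidin Camp at 6304 and 16744 CPM. Sums alone do not tell fewer barcodes with a transcript from fewer UMIs per barcode, and values per barcode follow for S100a8. Among the erythroid genes, Hbb-bs had a UMI in 14.4% of basophil barcodes and 9.93% of the others. The shares were 8.25% and 6.10% for Hbb-bt, 8.25% and 6.95% for Hba-a2, 8.25% and 9.08% for Hba-a1, and 2.06% and 7.58% for Car2. The lower sums of Hbb-bs, Hbb-bt and Hba-a2 thus did not come with a lower share of barcodes.

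Some basophil barcodes also carried enough transcripts of another class to pass its rule. Of the 97 barcodes 20 also passed another class rule, with at least 10 UMIs of its genes: 17 passed that of Ngp, Camp and Ltf (neutrophil), 5 that of Mpo, Elane and Prtn3, 1 the monocyte rule and 1 the erythroid rule. These 20 were deeper, with a median of 2067 UMIs against 943 in the other 77. The Scrublet caller marked 7 of the 97 as doublets (7.22%), all among these 20, against 164 of the 6342 other marrow barcodes (2.59%). S100a8 made up 0.742% to 13.5% of UMIs with a median of 5.38% in the 20, and 0.342% to 2.15% with a median of 0.938% in the 77, where the ranges overlap; in the other marrow barcodes the median was 1.23% and the highest value 34.1%.

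Most of the 20 were set apart by Ngp, Camp and Ltf or by Mpo, Elane and Prtn3, so lower levels of these genes in the other 77 follow from that rule and are a description. Neutrophil genes there stood at 8.13% to 59.1% of their level in the other marrow barcodes over 11 genes, against 28.7% to 69.5% in all 97. S100a8 was at 9881 CPM in the 77, close to the 7423 to 10122 CPM of the barcodes of 6 classes other than neutrophils and progenitors. Those classes held only barcodes that passed no other rule, so they too lacked barcodes that passed the rule of Ngp, Camp and Ltf. That shared limit may partly fix the likeness. S100a8 had a UMI in 97 of 97 basophil barcodes and in 99.9% of the others. The ratio of S100a8 to S100a9 UMIs was 1.55 over all 97 basophil barcodes, the 20 included, and 1.54 in the other marrow barcodes. In the 77 alone the levels were 9881 CPM of S100a8 and 5897 CPM of S100a9, which is a higher ratio. Without the 20, the log2 ratio was 7.44 for Cpa3, 7.20 for Ms4a2, 8.59 for Fcer1a, 5.35 for Gata2, 2.95 for Cd63 and 2.27 for Ctsg, while Elane gave -4.53, S100a9 -2.91 and Ltf -3.22. The genes past 2-fold then numbered 152 higher and 90 lower. The part of joined cells and of free transcripts in the lower neutrophil values was not tested.

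**Figure D4:**
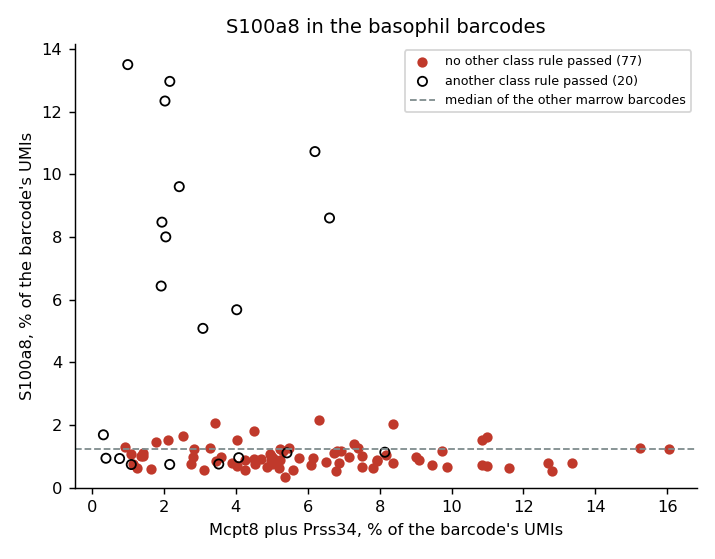
S100a8 (y axis) against Mcpt8 plus Prss34 (x axis), each as a percentage of the UMIs of a basophil barcode. Open circles are the 20 barcodes that also passed another class rule, filled circles the other 77, and the dashed line the median of the other marrow barcodes; 11 open circles lie above 5%, and no filled circle lies above 2.15%.

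Other classes of marrow barcodes were chosen by at least 10 UMIs of their own genes, and their barcodes passed no other class rule. Set beside them, the basophil barcodes had far higher levels of the 4 markers outside the rule and of Rnase12. Cpa3 was at 1914 CPM in basophil barcodes and 28.1 CPM in the progenitor-rule barcodes, Ms4a2 at 872 and 13.2 CPM, and Rnase12 at 261 CPM and 0.339 CPM (1 UMI) in neutrophil-rule barcodes. Gata2 was at 562 CPM in basophil barcodes, 18.2 CPM (1 UMI) in erythroid-rule, 10.2 CPM in neutrophil-rule and 1.65 CPM in progenitor-rule barcodes. Most of its 140 UMIs outside the basophil barcodes lay in barcodes that passed no class rule or more than 1. No class rule was set for stem cells or megakaryocyte-primed cells, so Gata2 and Itga2b were not compared with those. Ikzf2 was at 318 CPM in basophil barcodes and 147 CPM in the NK-rule barcodes (log2 1.11, 0.04 to 2.34), so that this factor was shared more widely, as were Spry2 (489 and 278 CPM in NK-rule barcodes) and Ptprs (334 and 257 CPM in plasmacytoid dendritic-rule barcodes). Srgn was lower than in the progenitor-rule barcodes, 798 against 950 CPM (-0.25, -0.58 to 0.06), within counting error. Cebpa, an early myeloid factor under the 100 CPM limit, was at 171 CPM in basophil barcodes and 46.3 CPM in progenitor-rule barcodes (1.88, 0.99 to 2.75; chosen after its values were seen).

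A mast cell comparison came from the Car1-GFP library, where 10 barcodes held at least 10 UMIs of Cpa3, Ms4a2 and Gzmb. That library differs in sort and in depth, with a median of 6275 UMIs in these 10 barcodes against 1098 in the basophil barcodes, so the levels are set side by side only. Mcpt8, Prss34, Cd200r3, Mpo and Ctsg had 0 UMIs in the 10, which allows up to 41.6 CPM, against 31702, 16054, 375, 1409 and 1181 CPM in the basophil barcodes. Gata2 was at 562 CPM in the basophil barcodes and 458 CPM in the 10, Cpa3 at 1914 and 277 CPM, Ms4a2 at 872 and 153 CPM, and Fcer1a at 513 and 13.9 CPM. Some other genes that were high in the basophil barcodes were also high in the 10. Csrp3 was at 481 and 430 CPM, Cd63 at 1613 and 1012 CPM, Ifitm1 at 1075 and 1803 CPM and Lmo4 at 896 and 1969 CPM. Others stood lower in the 10, with Runx1 at 448 and 83.2 CPM, Hdc at 399 and 69.3 CPM and Calr at 1051 and 208 CPM. Itga2b was at 212 CPM in the basophil barcodes and had 0 UMIs in the 10. Genes of both kinds were picked after their values were seen. Gzmb was at 8.15 CPM in the basophil barcodes and 2247 CPM in the 10, where it was part of the rule, and Srgn at 798 and 1692 CPM. Kit was at 65.2 CPM in the basophil barcodes and 55.5 CPM in the 10. The chymase Cma1 had 0 UMIs and 1 UMI, and Mcpt4 had 0 in both. Kit, Cma1 and Mcpt4 therefore do not tell the basophil barcodes from the 10.

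**Figure D5:**
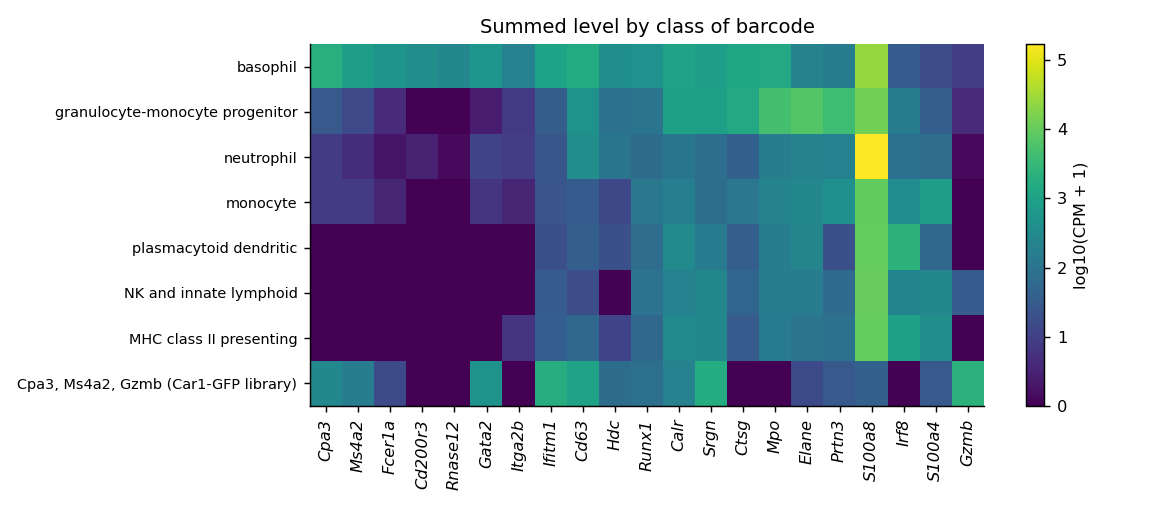
Level of 21 genes (columns) in basophil barcodes and in 7 other classes of barcode (rows), as log10(CPM + 1) of the summed counts. The basophil row is the brightest from Cpa3 to Itga2b among the marrow classes shown, the progenitor row is brightest for Mpo, Elane and Prtn3, and the Gzmb signal lies in the bottom row from the Car1-GFP library. No row stands for stem cells or megakaryocyte-primed cells, which were given no class rule.

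Over all 6439 kept marrow barcodes the genes whose log values followed the sum of Mcpt8 and Prss34 most closely were Cpa3 (Pearson r = 0.57), Ms4a2 (0.47), Fcer1a (0.43), Cd200r3 (0.36) and Rnase12 (0.34). These 5 were followed by Csrp3 (0.33), Gata2 (0.32) and Ifitm1 (0.25). The barcodes share 1 library and their depth.

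Transcripts of the cell cycle were present in many basophil barcodes. Of the 15 measured genes of S phase and of G2 and M phase 0 were past 2-fold against the other marrow barcodes, with medians of 0.30 and -0.01. Top2a, the topoisomerase of dividing cells, was at 538 CPM in the basophil barcodes and 456 CPM in the others, the helicase subunit Mcm6 at 163 and 85.1 CPM (log2 0.94), and the centromere histone Cenpa at 130 and 191 CPM (-0.55). At least 3 UMIs over both lists were found in 67 of the 97 basophil barcodes (69.1%) and in 54.2% of the others, but this count follows depth. Thinned to 500 UMIs, the shares were 34.0% (24.7 to 44.3) and 30.4% (29.3 to 31.5), beside 31.9% in the progenitor-rule, 54.0% in the monocyte-rule and 19.7% in the NK-rule barcodes. Exactly 3 UMIs were held by 9 basophil barcodes, 2 by 4 and 0 by 12, so the limit divides a range, and phase calls alone do not show division.

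Some basophil genes differed by more than counting error between barcodes with at least 3 cell cycle UMIs and those with fewer, and others did not. Mcpt8 was at 31625 CPM in the 67 with and 31965 CPM in the 30 without (log2 -0.02, -0.12 to 0.09), Cpa3 at 1921 and 1889 CPM (0.02, -0.43 to 0.50), Ms4a2 at 840 and 981 CPM (-0.22), Ctsg at 1197 and 1126 CPM (0.09) and Mpo at 1428 and 1344 CPM (0.09). Prss34 was lower, at 15162 and 19143 CPM (-0.34, -0.48 to -0.19), and Gata2 was at 483 and 835 CPM (-0.79, -1.54 to -0.0011). The intervals of Hdc (-0.75, -1.65 to 0.21), Cd200r3 (-0.60, -1.54 to 0.42) and Fcer1a (0.62, -0.37 to 1.76) included 0. Among the 77 without a second class, however, Mcpt8 was at 42779 and 31624 CPM (0.44, 0.32 to 0.55), Prss34 at 20396 and 19326 CPM (0.08, -0.08 to 0.23) and Gata2 at 589 and 840 CPM (-0.51, -1.34 to 0.34).

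With 300 CPM as the lowest mean and the cell cycle lists left out, 427 genes were measured in this comparison. In the 67 barcodes 26 of them (6.09%) stood higher by 2-fold or more and 11 (2.58%) lower by as much. The higher genes included 2810417H13Rik, which encodes a PCNA partner (log2 4.14), the histone Hist1h2ap (3.19), Stmn1 (1.81), which regulates microtubules, and the tubulin Tubb5 (1.79). Arpp19 (2.04), Hmgn2 (1.87), Hsp90aa1 (1.73) and Nucks1 (1.64) were in the same group. Camp (2.30), Wfdc21 (1.69), S100a8 (1.59) and S100a9 (1.47) were also higher, but 19 of the 20 barcodes that passed another rule were among the 67, and in the other 77 barcodes S100a8 gave 0.06 (-0.15 to 0.29), S100a9 -0.33 and Ngp -0.05.

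Lower in the 67 were Fcgr3, at 168 and 509 CPM (log2 -1.60, -2.73 to -0.45), Csrp3, at 357 and 908 CPM (-1.35, -2.13 to -0.54), and the chemokine Ccl6, at 115 and 509 CPM (-2.14, -3.42 to -0.89). Atp6v1f (-1.43), AI662270 (-1.40), Eif3f (-1.40), Taldo1 (-1.32), Lcp1 (-1.28), Eef1g (-1.26) and Naca (-1.04) made up the rest of the 10 lowest. Without the 20 barcodes of a second class, Fcgr3 gave -1.54 (-2.87 to -0.26) and Csrp3 -1.18 (-2.08 to -0.28), and Ccl6 gave -1.19 (-2.58 to 0.18). All these rest on 11 to 47 UMIs in the 67 barcodes and 13 to 28 in the 30. The deeper barcodes lie in the first set, with a median of 1236 UMIs against 853.5 in the second.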

How the data were processed

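Single cells of mouse marrow were profiled in 2 droplet libraries, both from labelled sorts of pooled mice. The submitters' processing notes name Cell Ranger 2.1, Seurat 2 and the build mm10; how reads shared by near-identical genes were counted is not given in the sources used here, so paired genes such as Hba-a1 and Hba-a2, Hbb-bs and Hbb-bt or Csf2rb and Csf2rb2 are uncertain. The authors deposited UMI counts per gene and barcode (27998 genes), with no annotation of cells used here.

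Barcodes were kept where under 10% of UMIs were mitochondrial, and the rule of at least 10 UMIs of Mcpt8 and Prss34 was applied to the marrow library, with Python 3.11.15, numpy 2.4.6, scipy 1.17.1 and scanpy 1.11.5. Doublets were marked with Scrublet and kept in the main values. Counts were summed per group, divided by the total and compared as log2 ratios of CPM with exact counting intervals at 95%; where a gene had no UMI, the limit given is 3 counts. The ratio code was tested on simulated data. The members of the group and the 31 gene lists (556 genes, 3 without a row) were chosen with earlier results of these data known. Named genes were the 25 highest and 15 lowest of those measured (mitochondrial, ribosomal protein, globin and immunoglobulin genes left out), the 6 markers, up to 6 of each list by size of ratio and, for cell cycle transcripts, the 10 highest and 10 lowest; other genes are marked in the text. Alternatives covered the rule, the mitochondrial limit, doublets, barcodes of a second class, weighting, scaling (TMM from edgeR 4.0.16, size factors from DESeq2 1.42.0, in R 4.3.3), the limit on low values and depth.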

Additional observations from a re-analysis of the deposited data

Results flagged for a closer look

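The Car1-GFP library, which holds no basophil barcode, still had 40 UMIs of Mcpt8 and Prss34, in 40 of its 2400 kept barcodes with 1 UMI each. This signal lies in a library outside the main comparison, and the most in any 1 barcode was 1, against at least 10 in every basophil barcode of the marrow library. Its source was not tested.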

How the results depend on the processing

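The number of basophil barcodes was 87 to 103 when the rule asked for 20 UMIs, 5 UMIs or 1% of UMIs, when the mitochondrial limit was 5% or absent, or when called doublets were removed, and 77 without barcodes of a second class; with barcodes of at least 1000 UMIs it was 54. Genes at least 2-fold higher numbered 152 without barcodes of a second class and 167 with all barcodes thinned to 500 UMIs, and 66 to 133 under the other settings that kept the 100 CPM limit. The limit itself moved the counts: a mean of 50 CPM gave 234 higher and 166 lower, 200 CPM gave 43 and 32, and no limit gave 1850 and 7334. Basophil barcodes with cell cycle UMIs numbered 33 after thinning, and 45 to 71 with limits of 2 or 5 UMIs, at least 1000 UMIs or without barcodes of a second class (the last chosen after seeing the data). Of 75 named genes past 2-fold, 11 came within 2-fold under some alternative, and H2-Aa alone changed sign, to 0.20 with at least 1000 UMIs. The median of the megakaryocyte list (2 genes) became -0.26 at 20 UMIs and -0.39 at 200 CPM, and with no limit those of cytokine receptors and granule exocytosis became -0.97 and -0.0015. Between barcodes with and without cell cycle UMIs, Ngp and S100a9 turned to -0.054 and -0.33 without barcodes of a second class. The cause of these shifts was not tested. No paired analysis was possible because both sides come from 1 library, and for the same reason no replicate could be left out. Depth limits what single barcodes show, and genes under about 24.4 CPM in the basophil sum rest on 3 UMIs or fewer.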
